A study of Mus musculus with 151 samples.

Results

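The 7 genes described here, Hmgcs1, Idi1, Sqle, Lss, Cyp51, Dhcr7 and Scarb1, encode 6 enzymes of cholesterol synthesis and a receptor for cholesterol uptake. They were taken by name from the 35976 genes of each of 7 count tables, and all 7 were found in every table. The tables held RNA-seq of female mice, the offspring of CF-1 females and B6/SJL males, conceived either by mating (Natural) or by in vitro fertilization (IVF), in which eggs of hormone-treated females were fertilized in a dish, cultured to blastocysts and transferred to foster mothers. Whole ovaries were sequenced at embryonic day E18.5 (4 Natural, 6 IVF), 12 weeks (4 Natural, 5 IVF) and 39 weeks (5 Natural, 5 IVF), together with pools of 100 primordial germ cells (PGCs) at E13.5 (4 Natural, 5 IVF), single oocytes at 12 weeks (36 Natural, 40 IVF), pools of 100 cumulus cells at 12 weeks (5 Natural, 5 IVF) and single oocytes at 39 weeks (9 Natural, 10 IVF). Adult females of both groups were delivered by cesarean section and fostered, and oocyte and cumulus cell donors of both groups were superovulated.

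Cholesterol is made from acetyl-CoA. Hmgcs1 acts near the start of the pathway, Idi1 balances the isoprenoid building blocks, Sqle and Lss turn squalene into the first sterol, and Cyp51 and Dhcr7 carry out later steps, Dhcr7 the last. When sterols in the endoplasmic reticulum run low, the factor encoded by Srebf2 is released from its anchor, which includes the Insig1 protein, and switches on these enzymes. Scarb1 takes cholesteryl esters from high-density lipoprotein and is abundant in cells that make steroid hormones. In the ovary, theca, luteal and granulosa cells convert cholesterol into hormones, beginning with its delivery to mitochondria by Star and its cleavage by Cyp11a1. Mouse oocytes are known to depend on their cumulus cells for cholesterol.

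Several libraries need a remark before the values. The 12-week oocytes were summed into 5 sets per group by the first part of their library names, on the assumption that oocytes sharing that part were collected together, and the set was the replicate. The library name of Natural cumulus cells 5 carried the name of an oocyte set labelled IVF, so member values for cumulus cells are also given without it. Of the other cumulus libraries, 5 shared a library name with an oocyte set of their own group (Natural cumulus cells 3 and 4, IVF cumulus cells 1, 2 and 3), so the 2 cell types were in part collected together. The 12-week IVF ovaries 4 and 3 had 2839022 and 9731457 counts against 20366410 to 43363799 in the other 7 ovaries of that age, the 39-week IVF ovary 1 held 8306 CPM (counts scaled to a common library total, the usual unit of count-based RNA-seq) of oviduct marker transcripts against 47.9 to 212 in the other 9, and the labels gave the 39-week Natural ovary 5 an age of both 39 and 40 weeks. The 39-week single oocytes carried no label of the animal, so each of their groups is 1 sample and no test was made. The labels and the outline of the mouse model give E18.5 for the fetal ovaries of both groups, whereas the methods place cesarean sections of IVF pregnancies a day after those of Natural pregnancies. If the fetal ages differed, that cannot be told apart from conception. The defining markers followed the labels: 9 oocyte markers summed to between 18230 and 29310 CPM in oocyte sets and to between 1.42 and 37.9 CPM in cumulus cells, and the 9 granulosa and cumulus markers to between 1179 and 2675 CPM in cumulus cells and between 56.2 and 99.0 CPM in oocyte sets. In whole ovaries, fewer cells of a type and less RNA per cell cannot be told apart. For PGCs, oocyte sets and cumulus cells nothing states that libraries or sets came from separate animals. Several oocyte sets of a group also shared the first number of their names. The p-values for these 3 kinds of sample measure only the spread between these libraries or sets.

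The sequence next to the start is shown for Hmgcs1, whose window carried the one sterol regulatory element of the group, and for Lss, a member with 1 matched start and no such element. RefSeq windows of 250 bases before the start were matched for 5 of the 7 genes (7 starts, of which Dhcr7 has 3); Sqle and Scarb1 were not matched. Both strands were searched for the CCAAT box by those letters, for the GC box as GGGCGG and for the sterol regulatory element as TCACNCCAC, and matches are in capitals. The Hmgcs1 window lies at chr13:119690101-119690350 on the plus strand of GRCm38.p6 and the Lss window at chr10:76531355-76531604 on the plus strand.
Hmgcs1: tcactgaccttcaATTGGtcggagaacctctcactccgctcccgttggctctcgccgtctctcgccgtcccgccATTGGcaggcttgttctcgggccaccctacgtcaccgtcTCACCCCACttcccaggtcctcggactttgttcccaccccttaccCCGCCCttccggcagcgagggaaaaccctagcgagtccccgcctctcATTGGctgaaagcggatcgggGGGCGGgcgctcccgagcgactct
Lss: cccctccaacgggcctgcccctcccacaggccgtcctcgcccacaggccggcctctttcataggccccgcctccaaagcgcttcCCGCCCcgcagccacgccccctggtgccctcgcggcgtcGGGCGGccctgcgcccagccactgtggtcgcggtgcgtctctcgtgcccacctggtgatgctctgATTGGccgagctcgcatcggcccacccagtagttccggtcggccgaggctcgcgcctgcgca
The Hmgcs1 window held 3 CCAAT boxes, 2 GC boxes and 1 sterol regulatory element, and the Lss window held 1 CCAAT box, 2 GC boxes and no sterol regulatory element of these letters. The windows of Idi1 (2 CCAAT boxes, 1 GC box) and Cyp51 (1 and 1) are given by counts only. Both reached into the annotated gene, as did those of Dhcr7. The end of the Lss window shown above also did, since the annotated Lss gene starts at 76531588. The 3 windows of Dhcr7 held 0, 0 and 2 CCAAT boxes, 1, 0 and 3 GC boxes and no sterol regulatory element. Among the 32851 RefSeq windows of this length, 33.8% held a CCAAT box, 32.7% a GC box and 1.05% the sterol regulatory element, and a match in letters is not evidence of binding.

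Each member had its own order of levels over the 7 kinds of sample. Levels are compared between genes only as CPM per kb of exon, taken on library totals without further scaling, and the tables were made separately and from 2 kinds of library kit. Hmgcs1, at chr13:119690379-119708260, had means of 147 CPM per kb in 12-week oocyte sets (range 99.7 to 212, n = 10), 136 in 39-week ovaries, 97.7 in PGCs (59.1 to 139, n = 9), 91.5 in 12-week ovaries and 69.0 in 39-week oocytes, in that order and with ranges that overlapped their neighbours. E18.5 ovaries (34.0) and cumulus cells (26.4, range 17.5 to 36.4) were lowest. Idi1, at chr13:8885501-8892451, was highest in PGCs (12.0, range 5.79 to 15.5) and 12-week oocyte sets (7.23, range 5.16 to 11.3), which overlapped, and lowest in E18.5 ovaries (0.901) and cumulus cells (0.868). Sqle, at chr15:59315077-59331192, led in PGCs (45.0, range 24.6 to 56.4) and was lowest in 12-week oocyte sets (2.62, range 1.37 to 3.95) and 39-week oocytes (2.05). Oocytes at 12 weeks thus held 147 CPM per kb of Hmgcs1 beside 2.62 of Sqle, an enzyme later in the pathway.

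Scarb1, at chr5:125277087-125341094 on the minus strand, was likewise high in adult ovaries but differed from Hmgcs1 in cumulus cells and germ cells. Its means were 215 CPM per kb in 39-week ovaries (range 64.9 to 357), 196 in cumulus cells (120 to 235) and 167 in 12-week ovaries (61.7 to 249.7), with overlapping ranges, and between 5.81 and 11.3 in PGCs, E18.5 ovaries and both ages of oocytes. Dhcr7, at chr7:143823145-143848410, followed the same division between adult ovaries and cumulus cells on one side and oocytes on the other. It held 90.6, 65.5 and 32.9 CPM per kb in 39-week ovaries, 12-week ovaries and cumulus cells. In 12-week oocyte sets and 39-week oocytes it held 1.28 and 1.04, but PGCs held 22.1. Whole ovaries contain oocytes as well as somatic cells. Cyp51, at chr5:4081145-4104746 on the minus strand, was also below 1 CPM per kb on average in oocytes (0.956 at 12 weeks and 0.588 at 39 weeks) and reached 38.5 in 39-week ovaries. Lss, at chr10:76531588-76557138, lay between 0.758 in 12-week oocyte sets and 9.11 in 39-week ovaries. Its level is divided by the union of exons over its annotated transcripts, 10.8 kb, and depends on that length. Kind of sample and table cannot be told apart in these levels.

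**Figure D1:**
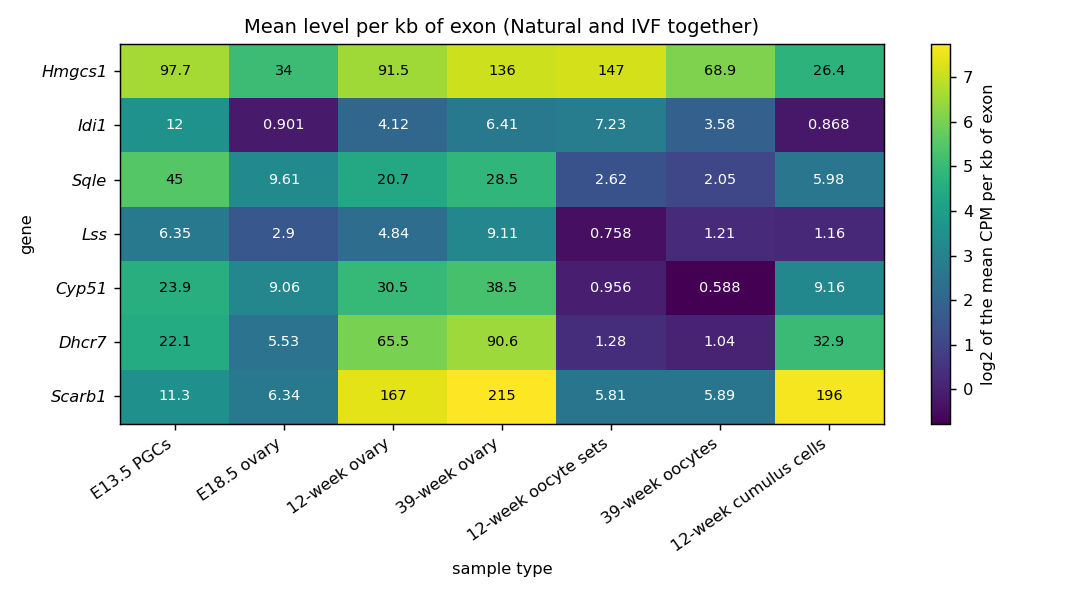
Mean level of each member in CPM per kb of exon over all libraries of a kind of sample, Natural and IVF together (numbers in the cells, colour on a log2 scale). Hmgcs1 passes 60 CPM per kb in PGCs, oocytes and adult ovaries, whereas Scarb1 passes 160 CPM per kb only in adult ovaries and cumulus cells.

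Between E18.5 and 12 weeks the receptor and the last enzyme rose most. Scarb1 was 46.0, 56.9, 48.1 and 65.9 CPM in the 4 Natural ovaries at E18.5 and 1236, 2123, 1479 and 1601 CPM at 12 weeks. In IVF ovaries it ran from 44.3 to 61.5 CPM (median 53.7) at E18.5 and was 1324, 525, 1901, 819 and 1749 CPM at 12 weeks. The ages did not overlap in either group, and the log2 fold change was 4.96 ± 0.45 (SE; 31.2-fold) in Natural and 4.69 ± 0.36 in IVF ovaries (edgeR quasi-likelihood test, Benjamini-Hochberg adjusted p = 1.52e-09 and 4.23e-11). Dhcr7 was 30.6, 35.0, 40.6 and 30.9 CPM in Natural ovaries at E18.5 and 351, 449.9, 421 and 412 CPM at 12 weeks. Its log2 fold change was 3.64 ± 0.48 in Natural and 3.69 ± 0.40 in IVF ovaries (adjusted p = 8.47e-07 and 1.69e-08, edgeR). All fold changes use TMM scaling, whereas the CPM values do not, and age and table cannot be told apart in any comparison of ages.

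The other synthesis enzymes rose less. Hmgcs1 went from 196, 157, 149 and 121 CPM in Natural ovaries at E18.5 to 534, 423, 531 and 392 CPM at 12 weeks, a log2 fold change of 1.64 ± 0.44 (adjusted p = 0.00288, edgeR), and by 1.41 ± 0.37 in IVF ovaries (adjusted p = 0.00182). Idi1 rose by 2.39 ± 0.47 in Natural and 2.15 ± 0.40 in IVF ovaries, from between 1.21 and 5.92 CPM in all 10 ovaries at E18.5 to between 10.1 and 19.3 CPM at 12 weeks. The ages of Hmgcs1 and of Idi1 did not overlap, and the share of all genes whose ages did not overlap was not counted. Cyp51 rose by 1.80 ± 0.39 and 1.86 ± 0.33, and Sqle by 1.18 ± 0.32 and 1.195 ± 0.27 on the log2 scale in Natural and IVF ovaries. Lss, the cyclase that forms lanosterol, was 26.4, 29.3, 33.7 and 21.2 CPM in Natural ovaries at E18.5 and 56.1, 46.7, 75.3 and 48.8 CPM at 12 weeks, a log2 fold change of 1.09 ± 0.42 (adjusted p = 0.0306, edgeR).

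In all, 7 of 7 members were called higher at 12 weeks in Natural ovaries, where 25.3% of 19724 genes were called higher and 24.3% lower, and 6 of 7 in IVF ovaries, where 30.8% were called higher and 28.2% lower. Lss was not called in IVF ovaries (0.65 ± 0.35, adjusted p = 0.117), but was called with only the 2 groups of that comparison in the fit (0.63, adjusted p = 0.000539, edgeR). Its Natural call was also lost without E18.5 Natural ovary 1 (1.11, adjusted p = 0.0524), 2 (1.12, 0.0511) or 4 (1.01, 0.0731) or 12-week Natural ovary 3 (0.93, 0.0869). The difference between the Natural and IVF age effects was called for 0 of 7 members (0.314% of genes called, 0 of 7 members at an unadjusted p under 0.05, and 0 with DESeq2). Markers of cell types differed over the same interval. Theca and interstitial markers (6 of 6 called higher in both groups, among them Star and Cyp11a1) and corpus luteum markers (5 of 6 called higher) rose in the same comparisons. Summed corpus luteum markers were 63.9 to 98.0 CPM at E18.5 and 1852 to 14820 CPM at 12 weeks. These 2 lists are not specific to those cells, since they summed to 9430 to 29390 and 3384 to 8215 CPM in 12-week cumulus cells. The part of these markers in the rise of the members was not tested.

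**Figure D2:**
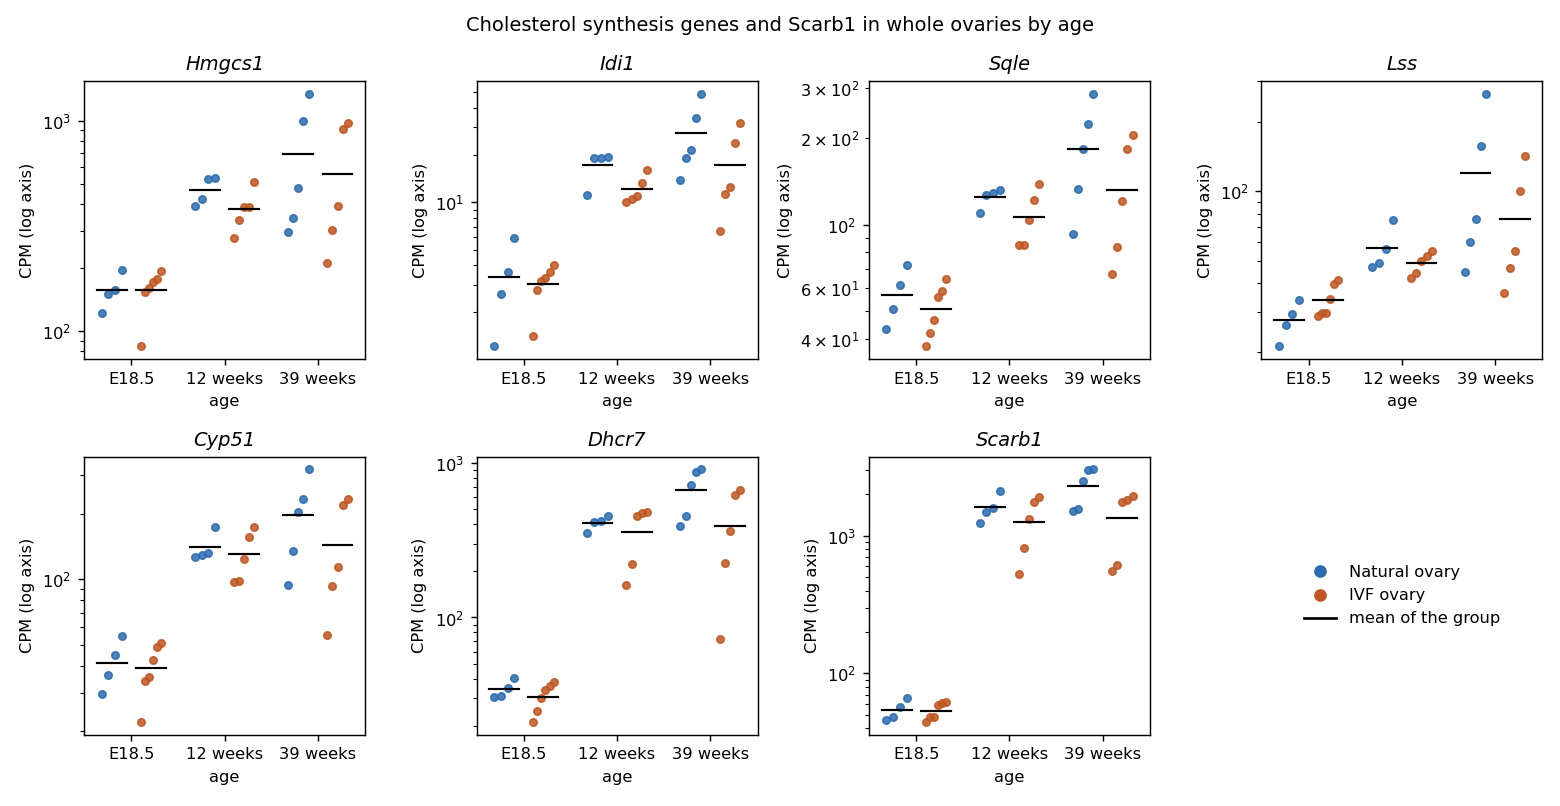
CPM of each member (log axis) in every whole ovary, fetal on the left, then the adult ages; points are single ovaries, blue Natural and orange IVF, and bars are group means. Scarb1 and Dhcr7 step up between E18.5 and 12 weeks without overlap, and the 39-week ovaries are spread over the widest range.

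Other genes of the pathway moved the same way over this interval. Of 15 further synthesis genes, 10 were called higher and 1 lower in each group, with a median log2 fold change of 1.08 in Natural and 1.25 in IVF ovaries against 0.01 over all genes in each. Msmo1, which removes methyl groups from the sterol ring, rose by 3.75 and 3.50, and Fdps, which joins isoprenoid units, by 3.60 and 3.82, whereas Lbr was the gene called lower (-0.82 and -0.55). Srebf2 itself rose by only 0.35 ± 0.13 and 0.47 ± 0.11 (adjusted p = 0.0270 and 0.000708, edgeR), and Insig1 by values that did not pass the test (0.22 ± 0.40 and 0.52 ± 0.35). Of 12 regulators, 8 were called higher and 1 lower in Natural and 9 and 1 in IVF ovaries. Among 15 further uptake and transport genes, 9 were called higher and 2 lower in each group, the latter including Pdzk1, a scaffold protein that binds the Scarb1 receptor (-3.40 and -2.78). All 9 genes of steroid hormone synthesis were called higher in both groups, led by Cyp11a1 (10.81 and 11.06) and Star (8.84 and 8.34). Over all 19724 genes, 25.3% were called higher and 24.3% lower in Natural ovaries, and 30.8% and 28.2% in IVF ovaries.

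Between 12 and 39 weeks, with the same 12-week ovaries as the reference, 1 of 7 members was called higher in Natural ovaries (10.0% of genes called higher and 11.6% lower) and 0 of 7 in IVF ovaries (4.23% called higher and 1.96% lower; 1 of 7 members at an unadjusted p under 0.05, and 0 with DESeq2). The called gene was Lss, at 75.8, 60.4, 157, 44.6 and 265 CPM in the 5 Natural ovaries at 39 weeks, a log2 fold change of 1.24 ± 0.40 (adjusted p = 0.0260, edgeR). The groups overlapped. The value was 0.72, with no call, when 12-week IVF ovary 4, 39-week IVF ovary 1 and 39-week Natural ovary 5 were left out together. The call was also lost without 39-week Natural ovary 3 (1.11, adjusted p = 0.0620) or 5 (0.76, 0.132) or 12-week Natural ovary 1 (1.23, 0.0629), 2 (1.16, 0.0699) or 4 (1.21, 0.0569). With only the 2 Natural groups in the fit Lss was not called (1.26, adjusted p = 0.0884) and Dhcr7 was (0.86, adjusted p = 0.0431, edgeR). Sqle was called without 39-week Natural ovary 4 (0.89, adjusted p = 0.0343), and DESeq2 called Lss alone (1.25, adjusted p = 0.00891). The fitted differences of the 7 members were all above 0, from 0.63 to 1.24 in Natural and from 0.20 to 0.77 in IVF ovaries, and the difference between the groups' age effects was called for 0 of 7 (2.71% of genes called; 0 of 7 at an unadjusted p under 0.05, and 0 with DESeq2). Srebf2, by contrast, was called higher in both groups, by 0.47 ± 0.12 and 0.53 ± 0.12 (adjusted p = 0.00847 and 0.00962, edgeR).

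At 39 weeks the within-group SD of each of the 7 members was above that at both earlier ages, by least for Scarb1 (0.767 against 0.666 at 12 weeks, log2 scale) and Idi1 (0.836 against 0.725 at E18.5). Hmgcs1 was 297, 478, 997, 346 and 1345 CPM in Natural ovaries 1 to 5 and 209, 391, 975, 303 and 915 CPM in IVF ovaries 1 to 5. Natural ovaries 3 and 5 and IVF ovaries 3 and 5 were the 4 highest, and the groups overlapped throughout. The same 4 ovaries were highest for Idi1, with 19.2, 21.7, 34.5, 13.9 and 49.1 CPM in Natural and 6.54, 12.6, 32.0, 11.4 and 23.8 CPM in IVF ovaries. Lss in IVF ovaries was 36.1, 46.4, 142, 55.3 and 100.3 CPM, again highest in ovaries 3 and 5. Dhcr7 and Scarb1 were in addition high in Natural ovary 1, with Dhcr7 at 905, 387, 714, 452 and 870.2 CPM in Natural and 224, 72.3, 667, 361 and 617 CPM in IVF ovaries.

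The median within-group SD of the 7 members on the log2 scale was 0.836 at 39 weeks, against 0.333 at E18.5 and 0.334 in 12-week ovaries, whereas the median over all 19724 genes was 0.372, 0.347 and 0.344. At 39 weeks the largest member value was 1.04 for Dhcr7 and the smallest 0.707 for Sqle. The same ovaries were high for Insig1 (SD 0.874), while Srebf2 lay between 223 and 251 CPM in all 10 ovaries (SD 0.110). The ratio of the highest to the lowest ovary at 39 weeks was 6.42 for Hmgcs1, 7.51 for Idi1, 7.33 for Lss and 12.5 for Dhcr7, against 1.12 for Srebf2. Summed corpus luteum markers varied in the same ovaries, at 13250, 6311, 12210, 7150 and 12720 CPM in Natural and 2891, 1695, 4505, 8136 and 8892 CPM in IVF ovaries, and their part in the spread of the members was not tested. No label gives the estrous stage at collection; the methods place at proestrus those adult females whose serum hormones were measured, and whether these ovaries came from them is not given in the sources used here.

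**Figure D3:**
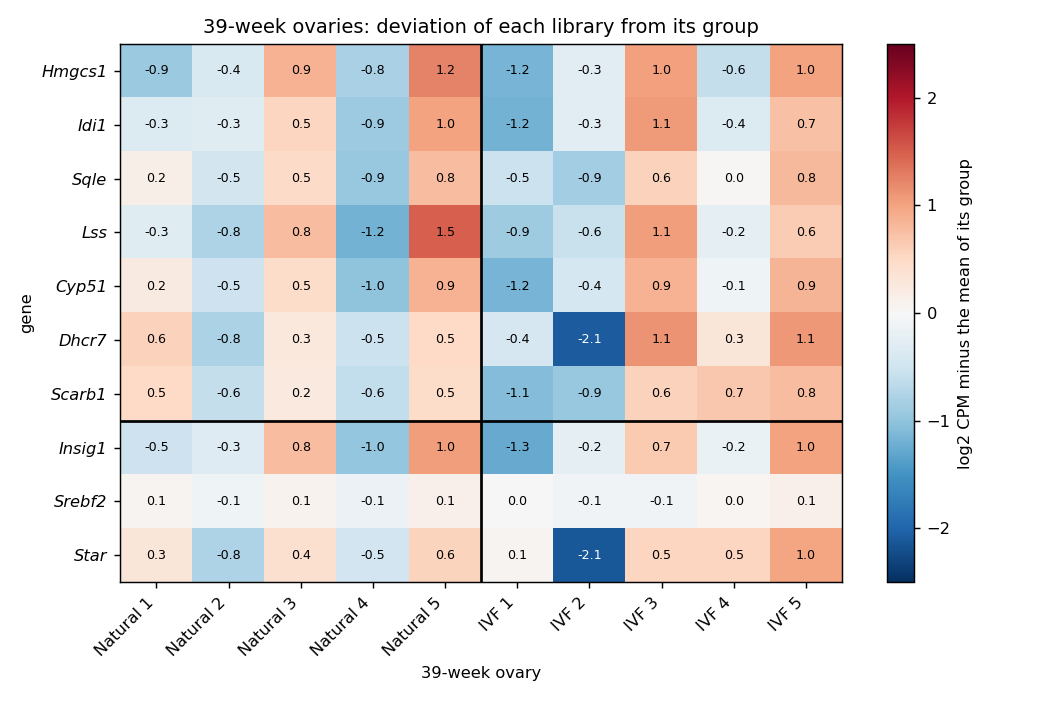
Deviation of each 39-week ovary from the mean of its group in log2 CPM, for the 7 members (above the line) and for Insig1, Srebf2 and Star. Natural ovaries 3 and 5 and IVF ovaries 3 and 5 lie above their group mean for all 7 members, and Srebf2 deviates by -0.15 to 0.13, the smallest range of the genes drawn.

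Over the 29 ovaries, each taken as its deviation from the mean of its age and group, Hmgcs1 varied most closely with Idi1 (Pearson r = 0.87, Spearman rho = 0.90), Lss (0.87 and 0.85) and Cyp51 (0.82 and 0.77) and least with Scarb1 (0.32 and 0.18). Without the 2 ovaries farthest from the median these values of r were 0.83, 0.82, 0.76 and 0.15. Within the 10 ovaries of 39 weeks r was 0.96 with Idi1 and 0.92 with Lss, and within the 9 of 12 weeks 0.62 and 0.62. Within the 10 of E18.5 these were 0.89 and 0.54, or 0.83 and 0.20 without the 2 farthest ovaries. With Cyp51 r was 0.86 at 39 weeks, 0.48 at 12 weeks and 0.84 at E18.5. Without the 2 farthest ovaries of each age it was 0.79, 0.01 and 0.45. With Scarb1 the sign changed between ages: r was -0.58 at E18.5 (-0.02 without the 2 farthest), -0.27 at 12 weeks and 0.58 at 39 weeks. Dhcr7, also an enzyme, had an r of 0.46 with Hmgcs1 and 0.80 with Scarb1 over the 29 ovaries. Among 12-week ovaries alone the 2 values were -0.02 and 0.85, and among 39-week ovaries 0.52 and 0.865. Fetal ovaries went the other way, with 0.73 and -0.26. The enzymes thus did not vary as 1 block apart from the receptor. All these values describe ovaries whose depth and cell content also differ, and the differences between members in r were not tested. Among the 10 of 19717 genes whose deviations were most like the mean of the 7 members were Nsdhl (r = 0.92), Acat2 (0.91), Stard4 (0.90), Msmo1 (0.87), Hsd17b7 (0.85), Acly (0.85), Sod2 (0.84) and Gm2a (0.82). Nsdhl, Msmo1 and Hsd17b7 encode synthesis enzymes, and over the 19 ovaries of the earlier ages alone r was 0.735 for Nsdhl, 0.851 for Msmo1 and 0.53 for Gm2a. Of the 15 other synthesis genes, 7 were among the 100 most alike, and the list's median r was 0.69 against -0.01 over all genes.

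Oocytes and cumulus cells of 12-week females differed in opposite directions for Hmgcs1 and Idi1 on the one side and Scarb1, Dhcr7 and Cyp51 on the other. Hmgcs1 was 741, 583, 514, 534 and 458 CPM in the 5 Natural oocyte sets and 105, 80.4, 119.7, 167 and 159 CPM in the 5 Natural cumulus libraries. In IVF samples it was 674, 751, 660.2, 972 and 881 CPM in oocyte sets and 118, 160.2, 118, 84.4 and 102 CPM in cumulus cells. Every oocyte set was above every cumulus library, and the log2 fold change of cumulus cells against oocytes was -2.85 ± 0.25 in Natural and -3.36 ± 0.26 in IVF samples (edgeR, adjusted p = 8.24e-10 and 7.86e-11). Idi1 was 39.7, 28.1, 28.3, 20.5 and 21.1 CPM in Natural oocyte sets against 0, 0.399, 7.01, 2.94 and 4.09 CPM in Natural cumulus cells, with log2 fold changes of -3.84 ± 0.62 and -3.51 ± 0.63 (adjusted p = 7.19e-06 and 2.63e-05). The cumulus level of Idi1 rests on at most 43 counts in a library.

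The receptor and the enzymes Dhcr7 and Cyp51 were higher in cumulus cells. Scarb1 was 1912, 1747, 1250, 1962 and 1852 CPM in Natural cumulus cells and 40.5, 35.2, 53.5, 39.9 and 67.4 CPM in Natural oocyte sets, a log2 fold change of 4.54 ± 0.27 (23.3-fold), and 4.40 ± 0.26 in IVF samples (adjusted p = 9.1e-13 and 1.4e-12, edgeR). Dhcr7 was 183, 201, 140.4, 320 and 253 CPM in Natural cumulus cells and 6.92, 5.96, 6.06, 8.28 and 11.6 CPM in oocyte sets, with log2 fold changes of 4.15 ± 0.28 in Natural and 3.94 ± 0.27 in IVF samples. Cyp51 was higher in cumulus cells by 2.22 ± 0.47 and 3.05 ± 0.49, from 2.74 to 5.50 CPM in Natural oocyte sets to 16.9 to 62.2 CPM in Natural cumulus cells. None of these 3 genes overlapped between the cell types, and the share of all genes without such overlap was not counted. The low oocyte levels of Dhcr7 and Scarb1 were highest in the sets with most Cyp11a1, a marker of steroid-making cells: Natural set 5 (Cyp11a1 129, Dhcr7 11.6, Scarb1 67.4 CPM) and IVF set 3 (75.2, 11.5 and 79.3 CPM). Those of Cyp51 were not, with the highest values in Natural set 3 (5.50 CPM, where Cyp11a1 was lowest of the Natural sets at 2.09 CPM) and IVF set 2 (7.58 CPM). Below the top set, Scarb1 and Dhcr7 in Natural sets did not keep the order of Cyp11a1 either. Scarb1 was 53.5 CPM in set 3 but 40.5 CPM in set 1, where Cyp11a1 was 38.6 CPM. Dhcr7 was 8.28 CPM in set 4 (Cyp11a1 25.3 CPM) and 6.92 CPM in set 1. The part of RNA from attached cumulus cells in the oocyte levels was not tested.

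Sqle and Lss, which act between those steps, gave no stable difference. Sqle was 13.8, 18.0, 14.2, 10.3 and 16.1 CPM in Natural oocyte sets and 23.2, 18.0, 38.8, 36.0 and 31.6 CPM in Natural cumulus cells, with log2 fold changes of 0.37 ± 0.32 (adjusted p = 0.289, edgeR) and, in IVF samples, 0.79 ± 0.33 (adjusted p = 0.0297). The IVF call held in 2 of the 10 fits that each left out 1 IVF library, without cumulus cells 4 or 5 (0.80 and 0.79), and was lost in the other 8, where the value ranged from 0.26 without cumulus cells 3 to 0.74 without cumulus cells 1. The libraries whose omission ended it were all 5 oocyte sets (0.52, 0.57, 0.66, 0.72 and 0.44) and cumulus cells 1, 2 and 3 (0.74, 0.61 and 0.26). Lss was at -0.03 ± 0.30 and 0.05 ± 0.30. The 2 cell types differ across most of the transcriptome, so these values depend on the scaling: with library totals in place of TMM, which moved the median of all genes by 0.68 and 0.57, Sqle was at 1.03 and 1.33 and Lss at 0.61 and 0.62, all called higher in cumulus cells. Without the expression filter, which moved the median by -0.45 and -0.43, Sqle was at -0.09 in Natural and 0.38 in IVF samples and Lss at -0.48 and -0.38, none called. Hmgcs1, Idi1, Scarb1, Dhcr7 and Cyp51 kept their direction and call under every scaling, filter and omission tried.

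Relative to TMM scaling, 3 of 7 members were called higher in cumulus cells and 2 lower in Natural samples, where 39.5% of 14719 genes were called higher and 45.3% lower, and 4 higher and 2 lower in IVF samples, where 38.2% and 45.9% were called. Leaving out Natural cumulus cells 5 gave -3.14 for Hmgcs1, -4.15 for Idi1, 4.33 for Scarb1, 3.88 for Dhcr7 and 2.19 for Cyp51 in Natural samples, all still called, and 0.16 for Sqle and -0.16 for Lss, neither called. In each of the 5 pairs of a cumulus library and an oocyte set that share a name, Hmgcs1 and Idi1 were lower and Scarb1, Dhcr7 and Cyp51 higher in the cumulus library. A fit of these pairs with the shared name as a block, an alternative added after seeing the data, called those 5 members in both groups, while Sqle was not called in IVF samples (0.51, adjusted p = 0.211, edgeR). The difference of the IVF effect between the cell types was called for 0 of 7 members (0.0204% of genes called; 0 at an unadjusted p under 0.05, and 0 with DESeq2). The cell types were sequenced in separate tables, so cell type and table cannot be told apart.

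**Figure D4:**
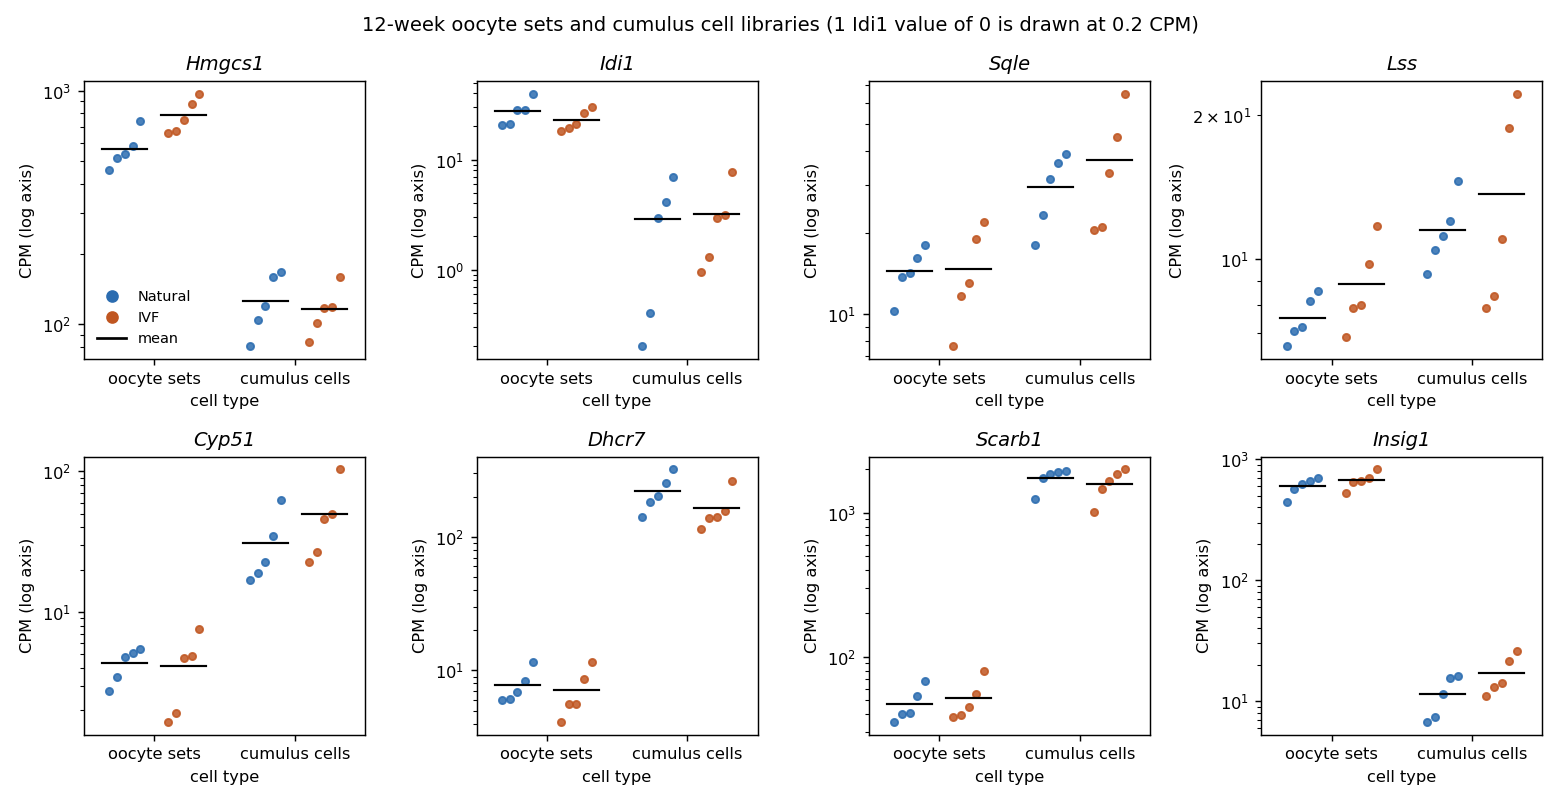
CPM (log axis) of the members and of Insig1 in 12-week oocyte sets and cumulus cell libraries; points are sets or libraries, blue Natural and orange IVF, and bars are means. Hmgcs1, Idi1 and Insig1 are higher in every oocyte set and Scarb1, Dhcr7 and Cyp51 in every cumulus library of the same group.

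Genes that regulate or accompany the members differed as well. Insig1 was 446 to 707 CPM in Natural and 522 to 825 CPM in IVF oocyte sets and 6.70 to 16.2 and 11.0 to 26.0 CPM in cumulus cells, a log2 fold change of -6.39 ± 0.33 and -5.87 ± 0.32. Srebf2 was higher in cumulus cells by 1.41 ± 0.20 and 2.11 ± 0.21. Without Natural cumulus cells 5 the Natural values were -6.42 for Insig1 and 1.19 for Srebf2, both called. Of the 15 other synthesis genes, 9 were called higher and 4 lower in cumulus cells in both groups, led by Fdps (6.81 in Natural and 7.05 in IVF samples) on the cumulus side and Lbr, a sterol reductase that also anchors chromatin to the nuclear envelope (-6.37 and -6.27), on the oocyte side. Of the 15 other uptake and transport genes, 10 were called higher and 4 lower in both groups. Without Natural cumulus cells 5 the Natural counts of these 2 lists were the same. Over all 14719 genes, 39.5% were called higher and 45.3% lower in Natural samples, and 38.2% and 45.9% in IVF samples. Of the 57 genes tested over all lists on cholesterol and steroids, 89.5% and 87.7% were called in either direction.

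In single oocytes Hmgcs1 was counted in every cell, whereas Cyp51 was listed at 0 in some oocytes of each group at both ages. Hmgcs1 was counted in all 36 Natural and all 40 IVF oocytes at 12 weeks, with a lowest, median and highest value of 140.5, 533 and 860.0 CPM in Natural and 291, 770.2 and 1295 CPM in IVF oocytes. At 39 weeks it was 195, 308 and 542 CPM in 9 Natural and 221, 302 and 369 CPM in 10 IVF oocytes. Age and table cannot be told apart here, and the ages were not tested. Cyp51 had a median of 2.97 and 2.01 CPM in Natural and IVF oocytes at 12 weeks and of 0.80 and 2.46 CPM at 39 weeks, where it was listed at 0 in 2 of 9 Natural and 1 of 10 IVF oocytes. Summed over the 39-week oocytes, Hmgcs1 stood at 319 CPM in Natural (95% exact Poisson interval 316 to 323) and 293 CPM in IVF (290.0 to 295.0), Scarb1 at 60.4 (58.9 to 61.9) and 46.1 (45.1 to 47.1), and Lss at 8.51 (7.96 to 9.07) and 15.0 (14.5 to 15.6). These intervals cover counting error only and say nothing of the spread between animals. Natural oocyte 9 stood apart and decided the direction of Scarb1, which was 39.8 CPM (38.5 to 41.2) over the other 8 Natural oocytes, below the IVF value. It had the same effect on Sqle, at 14.3 CPM with it and 7.50 without it against 11.7 in IVF, and on Dhcr7, at 7.35 and 3.46 against 5.42 CPM. Without it Hmgcs1 was at 327 and Lss at 10.3 CPM. It stood apart with 161 CPM of Scarb1, 47.5 of Sqle and 26.3 of Dhcr7, and with Lss and Cyp51 listed at 0. Its summed corpus luteum markers, at 146.7 CPM, were the highest of the 19 oocytes (14.9 to 127 in the others) and its granulosa and cumulus markers, at 8.93 CPM, the lowest (21.8 to 167). Of the genes of steroid-making cells, Star was listed at 0 in it and Cyp11a1 stood at 1.415 CPM, with up to 60.1 CPM of Cyp11a1 in the others. The part of all these markers in its values was not tested.

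No member passed the test between Natural and IVF samples. At a Benjamini-Hochberg adjusted p under 0.05 (edgeR quasi-likelihood test), 0 of 7 members were called in E18.5 ovaries, where 5.43% of 16415 genes were called, in 12-week ovaries (0.00567%), in 39-week ovaries (0.262%), in PGCs (0%), in 12-week oocyte sets (0.0277%) and in 12-week cumulus cells (0.00903%). DESeq2 also called 0 of 7 in each. At an unadjusted p under 0.05 there was 1 member, Dhcr7 in cumulus cells, and none in the other 5 comparisons. Over all genes tested that share was 24.1%, 14.4% and 19.2% in E18.5, 12-week and 39-week ovaries, 2.73% in PGCs, 6.67% in oocyte sets and 5.97% in cumulus cells. No member had Natural and IVF values that did not overlap, compared with 8.27% of genes tested in E18.5 ovaries, 5.69% in 12-week ovaries, 5.16% in 39-week ovaries, 0.642% in PGCs, 1.79% in oocyte sets and 0.469% in cumulus cells.

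The intervals of these differences were of unequal width. In 39-week ovaries Scarb1 was 3034, 1558, 2481, 1521 and 2978 CPM in Natural and 552, 615, 1765, 1817 and 1929 CPM in IVF ovaries, a log2 fold change of -0.82 with a 95% interval of -1.71 to 0.08 (adjusted p = 0.296, edgeR). The groups overlapped, with IVF ovaries 1 and 2 lowest. All 7 members were fitted below 0 at 39 weeks, from -0.34 for Hmgcs1 (interval -1.54 to 0.85) to -0.82, with a median of -0.70 against 0.03 over all genes. They varied together over these ovaries (Pearson r between pairs from 0.52 to 0.96), so their shared direction is not 7 separate results. Without Natural ovary 5 the fitted values ran from 0.04 for Hmgcs1 to -0.70 for Scarb1, and without IVF ovary 1 from -0.14 for Hmgcs1 to -0.66 for Dhcr7. Corpus luteum markers had a median of -0.69 in the same comparison (0 of 6 called), and Star, which carries cholesterol into mitochondria, was at -1.37 ± 0.48 (adjusted p = 0.180); their part in the member values was not tested.

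In 12-week ovaries the 7 fitted differences were also all below 0, from -0.11 for Cyp51 (interval -0.54 to 0.32) to -0.48 for Idi1 (-0.97 to 0.00), with a median of -0.23 against 0.01 over all genes. The 7 members were measured in the same ovaries (Pearson r between pairs from -0.27 to 0.91), so these are not 7 separate results either. Without IVF ovary 4 the fitted differences ran from 0.00 for Dhcr7 to -0.44 for Idi1. Summed oviduct markers were 3307 to 7787 CPM in the Natural and 74.5 to 3157 CPM in the IVF ovaries of this age and did not overlap, and their part was not tested. In E18.5 ovaries the members lay between -0.22 (Sqle) and 0.24 (Lss), with intervals inside -1.08 and 0.70. Oocyte markers were lower there in IVF ovaries, with 4 of 9 called and a median of -1.81. Erythroid markers were higher, with 2 of 5 called, a median of 1.57 and summed levels of 1635 to 4592 CPM in IVF against 583 to 1595 CPM in Natural ovaries, and so were 3 of 5 theca and interstitial markers (median 0.72) and 1 of 6 corpus luteum markers, while 1 of 5 endothelial markers was lower. Their part in the member values was not tested.

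In PGCs the members lay between -0.07 (Lss) and 0.32 (Hmgcs1; interval -0.36 to 1.01). Hmgcs1 in PGCs was 415, 272, 448 and 404 CPM in Natural and 636, 387, 434, 493.4 and 551 CPM in IVF libraries, which overlapped. In 12-week oocyte sets Hmgcs1 was at 0.35 (-0.05 to 0.75), with 3 of the 5 IVF sets above the highest Natural set, and Idi1 at -0.39 (-0.89 to 0.11). In cumulus cells Dhcr7 was 183, 201, 140.4, 320 and 253 CPM in Natural and 264, 139, 114, 142 and 157 CPM in IVF libraries, a log2 fold change of -0.47 (interval -0.91 to -0.03, adjusted p = 0.794, edgeR) and -0.37 without Natural cumulus cells 5. Without that library the other members lay between -0.08 (Scarb1) and 0.56 (Idi1), none called. The cumulus libraries fell into 2 sets of library names, which entered the fit, and the Dhcr7 difference in mean log2 CPM was -0.54 in the first (3 against 3) and -0.43 in the second (2 against 2). Cyp51 pointed up in both, by 0.78 and 0.27, and Lss pointed up in the first (0.34) and down in the second (-0.32).

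**Figure D5:**
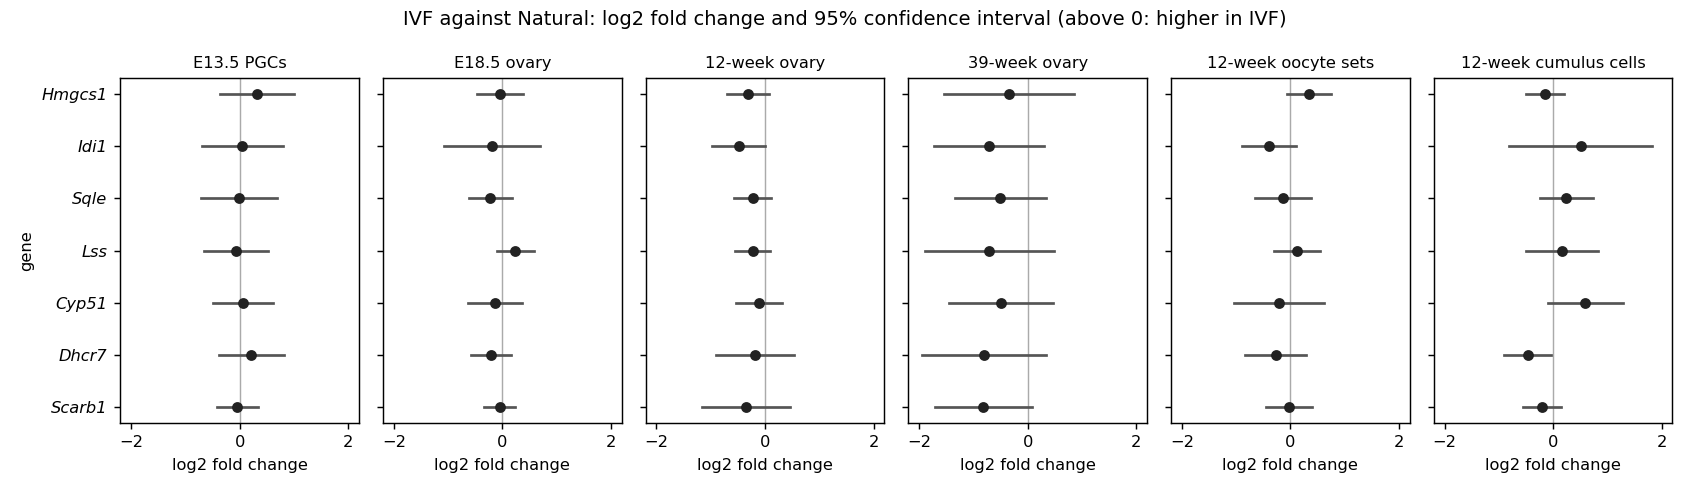
Log2 fold change of IVF against Natural for each member (points) with its 95% confidence interval (lines) in 6 kinds of sample, from edgeR. The interval includes 0 for every member and kind of sample except Dhcr7 in cumulus cells, whose adjusted p was 0.794.

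Among the genes around the members, edgeR made calls between IVF and Natural at E18.5, in 4 of 60 tested (6.67%, against 5.43% of all genes), and in none of the other 5 kinds of sample. At E18.5 Fdft1, which makes squalene, was lower in IVF ovaries (-0.59), as 1 of 15 other synthesis genes called, and Lrp1, an endocytic lipoprotein receptor, was higher (0.46), as 1 of 15 other uptake and transport genes. Cyp17a1 (1.28) and Star (0.72), both of steroid hormone synthesis, were higher as 2 of 8 tested. Srebf2 and Insig1 were called in none of the 6 comparisons, with values at 39 weeks of -0.02 ± 0.09 and -0.40 ± 0.47. The interval of Srebf2 there was -0.22 to 0.18. DESeq2 called more of these genes, and it also called more of all genes in the same comparisons, as counted in the last section. Its calls are listed without a share over all genes tested, so they do not set these genes apart. At E18.5 it added Ebp, Fdps and Nsdhl (lower) and Abca1 (higher). In 12-week ovaries it called Stard3 (lower) and Abca1 (higher), in 39-week ovaries Nr1h3, Lrp1 and Star (lower) and Abcg1 (higher), and in cumulus cells Gramd1a (higher).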

How the data were processed

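RNA-seq libraries of ovaries, PGCs, oocytes and cumulus cells were used. The authors deposited raw read counts per gene, not normalized, in 7 tables; the submitters' notes name Trimmomatic 0.32, STAR 2.3.0e, featureCounts 1.5.0 and the mm10 genome. Whole-ovary libraries were stranded mRNA libraries, and low-input libraries were a modified SMART-Seq preparation. Counts were tested with the edgeR 4.0.16 quasi-likelihood test (R 4.3.3; TMM scaling, filterByExpr, Benjamini-Hochberg adjustment over all genes, called at an adjusted p under 0.05), with DESeq2 1.42.0 and limma 3.58.1 as alternatives. IVF and Natural were compared within each table, with the cumulus library set as a covariate; ages were fitted over all 29 ovaries, and oocyte sets with cumulus libraries. CPM used library totals, which ran from 2532824 in cumulus cells to 58259515 in an oocyte set. Single oocytes at 12 weeks had from 839781 counts. CPM per kb used the union of exons in GENCODE annotation of GRCm38 (mm10). The self-test ran on simulated data. The members, the gene and marker lists, the motifs and the added alternatives were chosen with earlier results of these data known. Genes named outside the members were Insig1, Srebf2, Star and Cyp11a1, the 3 called genes of largest change per list, and the 10 genes most like the members in pattern, some of which are not reported here; Lbr, genes called by DESeq2 alone, and Fdps, Msmo1 and Pdzk1 where outside that rule, were named after their values were seen. Cumulus cells of 39 weeks were not analysed here. No 2 libraries held identical counts.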

Additional observations from a re-analysis of the deposited data

Results flagged for a closer look

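Of 98 groups of 4 to 10 samples examined for a member, 9 held a library far from the others by Dixon's criterion, where chance gives about 1 in 20. In ovaries these were Hmgcs1 in E18.5 IVF ovary 3 (84.4 CPM, 153 to 194 in the others), Cyp51 in 12-week Natural ovary 1 (173 CPM, 126 to 132) and Idi1 in 12-week Natural ovary 4 (11.2 CPM, 19.1 to 19.3). In PGCs they were Dhcr7 in Natural library 2 (72.3 CPM, 123.5 to 129) and Scarb1 in IVF library 4 (72.5 CPM, 97.5 to 107). Dhcr7 in IVF cumulus cells 1 stood at 264 CPM, with 114 to 157 in the others. The 39-week Natural oocyte 9 stood apart for Sqle (47.5 CPM, 1.01 to 13.5), Dhcr7 (26.3 CPM, 0 to 7.56) and Scarb1 (161 CPM, 23.1 to 62.9).

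The IVF effect differed between 39-week and 12-week ovaries for 2 genes around the members: Lrp1 by -0.94 and the efflux transporter gene Abcg1 by 0.92 on the log2 scale (edgeR interaction term, adjusted p = 0.0319 and 0.0489). These were 2 of 62 such genes tested (3.23%), against 2.71% of all genes. With only the groups of that comparison in the fit neither was called (adjusted p = 0.0880 and 0.108), and 3 genes were called in all.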

How the results depend on the processing

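Of 574 member values under the alternatives, 530 kept their direction and side of the threshold, 7 lost and 5 gained a call, and 32 turned in direction, 0 of them called in the reported fits. The 3 differences between effects are not among these. Of their 154 member values 18 turned, 0 of them called. From the fits leaving out 1 library, both totals hold only the lowest and highest value of each member. Over all such fits, Sqle lost its call 8 times in IVF cumulus cells against oocytes. Lss lost its call 4 times in Natural ovaries of 12 weeks against E18.5. In those of 39 against 12 weeks Lss lost it 5 times and Sqle gained 1. Depth limits Idi1 in cumulus cells most. The cause of each change was not tested.

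Genes called between IVF and Natural, with 891, 1, 45, 0, 4 and 1 in E18.5, 12-week and 39-week ovaries, PGCs, oocytes and cumulus cells, were 1856, 633 and 1128 in ovaries, 55 in oocytes and 31 in cumulus cells with DESeq2. Without the expression filter they were 9 and 28 in 12-week and 39-week ovaries, 19 in oocytes and 104 in cumulus cells, with limma 0 in oocytes, and with no term for the library set 0 in cumulus cells. Leaving out a library gave 313 to 1973, up to 5, 0 to 123, 1 to 8 in oocytes and up to 5 in cumulus cells. The replicate block gave 3, 0 and 26 genes in ovaries, 2 in PGCs and 26 in cumulus cells, and called 0 members in each. The numbers were not shown to pair the libraries, since no comparison had every pair's correlation over 0.1 (lowest -0.357, in 12-week ovaries), and the oocyte sets share no numbering.

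Over age, an alternative added after seeing the data left out 3 ovaries that stand apart: 12-week IVF ovary 4, 39-week IVF ovary 1 and 39-week Natural ovary 5. It left 0 members called in Natural ovaries of 39 against 12 weeks (0 to 2 leaving out 1 library). In IVF ovaries of these ages 1220 genes were called, against 1996 with DESeq2, 759 without the filter, 223 with only those groups, 2216 without the 3 ovaries and 539 to 2606 leaving out a library. The difference of the IVF effect between 12 weeks and E18.5 (62 genes) had 336 with DESeq2, 29 with RLE size factors, 16 without the filter, 1 with only those groups, 39 without the 3 ovaries and 0 to 96 leaving out a library; that between 39 and 12 weeks (534) had 1531 with DESeq2, 3 with only those groups, 172 without the 3 ovaries and 80 to 1111 leaving out a library; that between cumulus cells and oocytes (3) had 11 with DESeq2, 1 with the first library set only, 1 with shared library names as a block (added after seeing the data, as was the sum of 39-week oocytes without Natural oocyte 9) and 0 to 5 leaving out a library.

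Member log2 values whose direction turned when 1 library was left out are given by their range. In E18.5 ovaries, Hmgcs1 ranged from -0.15 to 0.09, Cyp51 from -0.28 to 0.0551, Idi1 from -0.48 to 0.25, Scarb1 from -0.12 to 0.046. In 12-week ovaries, Dhcr7 ranged from -0.33 to 0.0015. In 39-week ovaries, Hmgcs1 ranged from -0.62 to 0.0445. In PGCs, Sqle ranged from -0.27 to 0.20, Lss from -0.29 to 0.20, Cyp51 from -0.17 to 0.21, Dhcr7 from -0.0136 to 0.42, Idi1 from -0.22 to 0.40, Scarb1 from -0.11 to 0.0615. In oocyte sets, Sqle ranged from -0.28 to 0.0059, Lss from -0.0033 to 0.20, Scarb1 from -0.17 to 0.0828. In cumulus cells, Sqle ranged from -0.0447 to 0.36, Lss from -0.13 to 0.33. In IVF ovaries of 39 against 12 weeks, Dhcr7 ranged from -0.036 to 0.50, Scarb1 from -0.0039 to 0.40. In Natural cumulus cells against oocytes, Lss ranged from -0.33 to 0.0762. In IVF cumulus cells against oocytes, Lss ranged from -0.39 to 0.0868. Without the expression filter in PGCs, Sqle was at 0.0098. With the replicate block in PGCs, Sqle was at 0.0934, Lss was at 0.0798, Scarb1 was at 0.0081. With limma in oocyte sets, Sqle was at 0.067, Scarb1 was at 0.12. Without the expression filter in Natural cumulus cells against oocytes, Sqle was at -0.087. With library totals, added after seeing the data, in Natural cumulus cells against oocytes, Lss was at 0.61. Without the expression filter in IVF cumulus cells against oocytes, Lss was at -0.38. With the first library set only in IVF cumulus cells against oocytes, Lss was at -0.0279. With shared library names as a block in IVF cumulus cells against oocytes, Lss was at -0.0529.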
